A study of Mus musculus with 64 samples.

Results

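The genes of fibroblast growth factor (FGF) signalling and its mitogen-activated protein kinase (MAPK) feedback described here were 10 of the 23338 genes counted in each library: the ligand Fgf4, the receptors Fgfr1, Fgfr2, Fgfr3 and Fgfr4, the feedback inhibitors Dusp6, Spry2 and Spry4, and the ETS-family transcription factors Etv4 and Etv5. They were chosen by name, and all 10 symbols were found in the files. RNA-seq was available for 64 libraries of C57BL/6 mice: 12 single eight-cell embryos from natural matings (6 male and 6 female), 4 embryonic stem (ES) cell lines in 2i medium with LIF (2 male and 2 female), 24 fetal livers of late gestation and 24 livers of adult mice (12 male and 12 female at each age). Each ES line was grown from the inner cell mass of 1 embryo, so a line stands for 1 embryo of its sex, and each embryo library pooled all cells of 1 embryo. The 2i medium holds an inhibitor of MEK, the kinase directly above ERK, and an inhibitor of GSK3, and there was no ES library without them. Embryo libraries were made by amplifying the RNA of single embryos and all others from total RNA, so eight-cell stage and library protocol cannot be told apart.

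An FGF ligand brings together a pair of FGF receptors, and the adaptor Frs2, the exchange factor Sos1 and a chain of kinases that ends in MEK and ERK carry the signal to the nucleus. ERK switches on its own brakes: Dusp6 encodes a phosphatase that removes the activating phosphates from ERK, and Spry2 and Spry4 encode Sprouty proteins that block the pathway upstream of it. Etv4 and Etv5 are transcription factors whose genes are common readouts of FGF activity. In the early mouse embryo Fgf4 comes from the epiblast lineage and drives its neighbours to primitive endoderm, while 2i medium holds ES cells in a naive state by blocking that signal at MEK. In liver, Fgfr4 with its co-receptor Klb receives the intestinal hormone Fgf15 and lowers the bile acid enzyme Cyp7a1.

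Libraries held 1567583 to 10386931 reads on genes, the adult livers being the shallowest (1567583 to 4757610). Levels are given as CPM, the read count scaled to a common library total, with TMM scaling over the 64 libraries, and a library with no read of a gene has an upper limit of 3 reads, which on the same scale was 0.217 to 0.236 CPM in ES lines, 0.339 to 0.596 CPM in embryos, 0.324 to 0.511 CPM in fetal livers and 0.801 to 2.28 CPM in adult livers. Labels were checked against markers. The ES lines carried naive pluripotency markers (Nanog 367 to 422 CPM) and the summed level of 6 primitive endoderm markers was 4.08 to 6.84 CPM. They also held sums of 96.8 to 178 CPM for primed or differentiating epiblast, 73.2 to 112 CPM for trophectoderm and 522 to 667 CPM for cholangiocyte markers. Embryos had sums of 386 to 1483 CPM for naive and 264 to 826 CPM for primitive endoderm markers, with 228 to 706 CPM of Gata6 alone. Both liver stages carried hepatocyte, stellate, endothelial and Kupffer cell markers, and the levels of Xist and Eif2s3y matched the sex label in all 64 libraries.

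The promoters of 3 genes are shown because these genes mark the opposite patterns described below, highest in 2i ES cells (Fgf4 and Etv5) and lowest there (Fgfr4). Each run is the 250 bases before the RefSeq start in GRCm38.p6, the assembly of mm10, written 5′ to 3′ on the strand of the gene, with capitals marking a match to CCGGAA, a core of ETS-family binding motifs, on either strand. The promoters lie at chr7:144861136-144861385 (plus strand) for Fgf4, chr16:22439571-22439820 (minus strand) for the upstream start of Etv5, and chr13:55152568-55152817 (plus strand) for Fgfr4.
Fgf4: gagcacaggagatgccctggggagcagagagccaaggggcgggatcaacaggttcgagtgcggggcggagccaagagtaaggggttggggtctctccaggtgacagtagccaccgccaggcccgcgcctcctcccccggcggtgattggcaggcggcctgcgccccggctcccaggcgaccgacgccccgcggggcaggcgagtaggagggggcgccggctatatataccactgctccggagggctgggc
Etv5: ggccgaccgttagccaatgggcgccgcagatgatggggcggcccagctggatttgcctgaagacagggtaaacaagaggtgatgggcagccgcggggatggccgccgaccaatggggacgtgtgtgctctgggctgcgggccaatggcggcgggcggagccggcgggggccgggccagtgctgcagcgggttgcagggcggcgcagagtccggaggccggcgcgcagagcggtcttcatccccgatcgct
Fgfr4: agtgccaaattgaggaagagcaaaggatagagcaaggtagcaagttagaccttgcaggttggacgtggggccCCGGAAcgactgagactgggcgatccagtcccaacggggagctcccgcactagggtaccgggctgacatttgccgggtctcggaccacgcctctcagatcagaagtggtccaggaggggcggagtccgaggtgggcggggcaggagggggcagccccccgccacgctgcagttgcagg
The Fgf4 and Etv5 windows both have a GC content of 71.2% and that of Fgfr4 has 64%. Windows were found for Fgf4, Fgfr2, Fgfr3, Fgfr4, Dusp6, Spry2 and Etv5, and the 1 CCGGAA match among them was that of Fgfr4, while 12.03% of 32851 promoter windows of the same length hold CCGGAA on either strand. The cyclic AMP response element TGACGTCA, held by 1.546% of all windows, was in none of them. These are matches of letters, and binding was not measured.

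The ligand and the ETS factors had their highest levels in ES cells. Fgf4 (chr7:144861386-144865245), which encodes the FGF ligand of the epiblast lineage, had 317 and 353 CPM in the male ES lines 1 and 2, and 343 and 318 CPM in the female lines 3 and 4. In eight-cell embryos it ranged from 0.160 to 41.7 CPM (median 7.97), and no read of it was found in any of the 24 fetal or 24 adult livers. The ES lines lay above every embryo. The lowest embryo had 1 read, which is within the limit that no read allows in a liver.

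**Figure D1:**
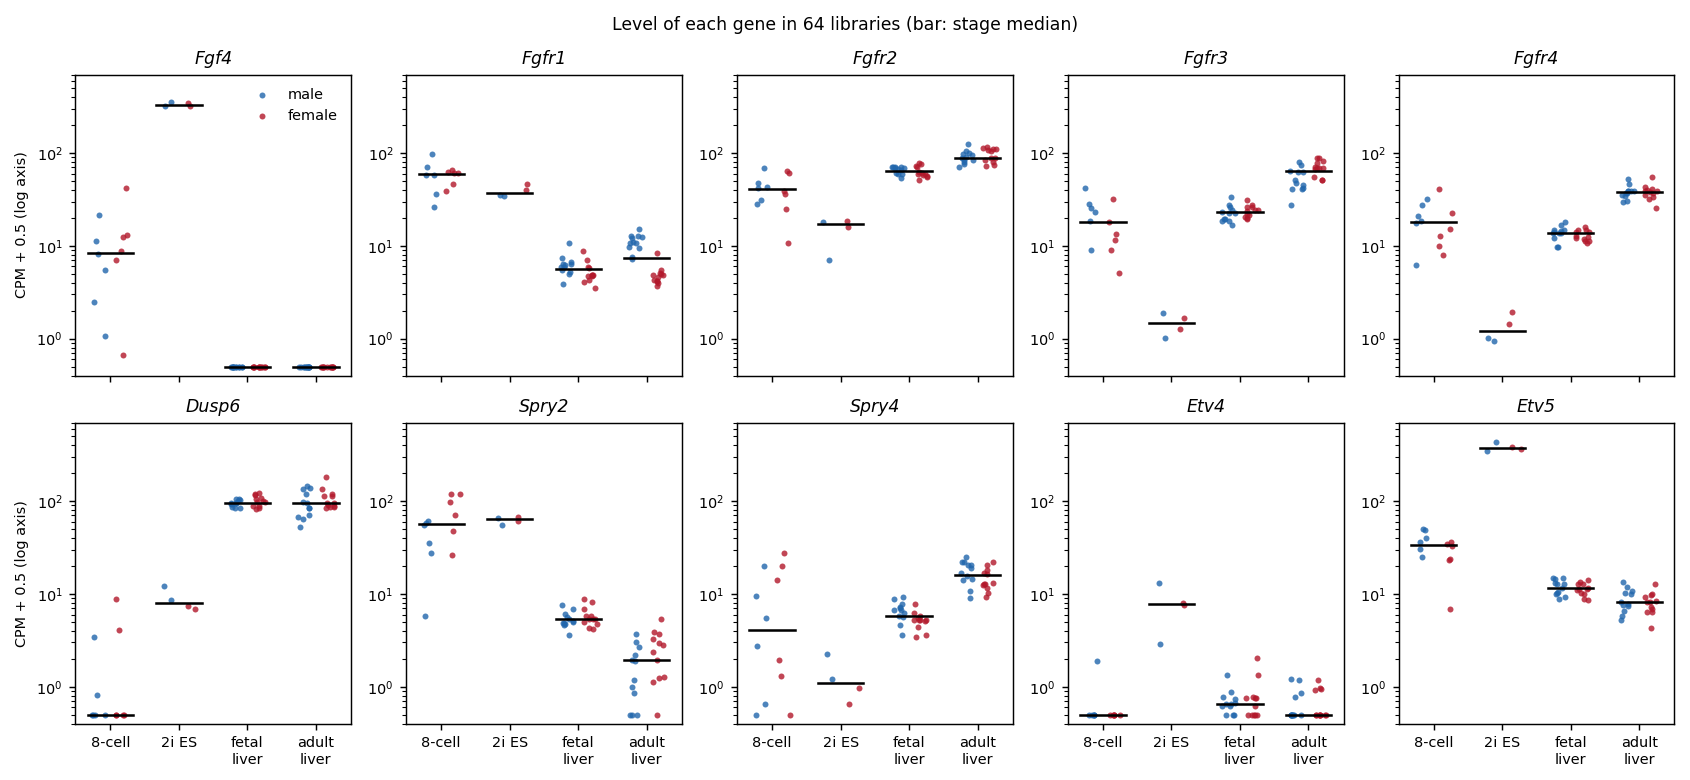
CPM plus 0.5 on a log axis for each of the 10 genes in 12 eight-cell embryos, 4 2i ES lines, 24 fetal livers and 24 adult livers, with 1 point per library, colours for sex and a bar at the stage median. Fgf4, Etv4 and Etv5 have their highest median in 2i ES cells, and Fgfr2, Fgfr3, Fgfr4 and Spry4 their lowest.

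Etv5 (chr16:22381313-22439570), an ETS factor, was likewise highest in ES cells. These cells were grown with a MEK inhibitor and ERK activity was not measured, so this level is not a measure of FGF activity. Other libraries were compared by range. Etv5 had 430, 343, 359 and 383 CPM in ES lines 1 to 4, against 6.46 to 49.8 CPM in embryos (median 33.3), 8.12 to 14.5 CPM in fetal livers (median 11.03) and 3.79 to 12.9 CPM in adult livers (median 7.64). The ES lines did not overlap any other stage, whereas fetal and adult livers overlapped. Its close relative Etv4 (chr11:101769747-101785310) was low everywhere, with 2.38, 12.7, 7.15 and 7.46 CPM in ES lines 1 to 4. Reads of Etv4 were found in 1 of 12 embryos (9 reads), in 16 of 24 fetal livers (at most 12 reads) and in 8 of 24 adult livers (at most 2 reads).

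Per length of transcript, Fgf4 and Etv5 were also the most abundant of the 10 genes in ES cells. RPKM, the reads per kilobase of the longest RefSeq transcript scaled to the reads on genes of the library, had a median of 143 for Fgf4, 121 for Etv5 and 39.5 for Spry2 over the 4 lines. Fgf4 (135.6 to 155.7 RPKM) and Etv5 (115 to 144 RPKM) overlapped between lines. The 4 receptors followed in the order Fgfr1 (9.67 RPKM), Fgfr2 (5.04 RPKM), Fgfr3 (0.296 RPKM) and Fgfr4 (0.283 RPKM). Fgfr3 and Fgfr4 overlapped between lines (0.159 to 0.435 and 0.174 to 0.549 RPKM), as did Etv4 (median 3.95 RPKM) and Dusp6 (median 3.50 RPKM). Spry4 had the lowest median, at 0.165 RPKM, and overlapped with Fgfr3 and Fgfr4 (0.0421 to 0.490 RPKM).

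Among the receptors, Fgfr1 (chr8:25518759-25575718) had higher levels in embryos and ES cells than in liver. It had 25.6 to 97.4 CPM in embryos (median 59.1), 34.8, 33.9, 39.1 and 45.7 CPM in ES lines 1 to 4, 2.98 to 10.1 CPM in fetal livers (median 5.18) and 3.20 to 14.7 CPM in adult livers (median 6.94). Embryos and ES lines overlapped, and so did both liver stages, but no liver reached the level of an embryo or ES line.

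Fgfr2, Fgfr3 and Fgfr4 had their lowest medians in ES cells. Fgfr2 (chr7:130162451-130266808) had 17.7, 6.55, 15.4 and 18.1 CPM in ES lines 1 to 4, 10.1 to 68.9 CPM in embryos, 50.2 to 76.9 CPM in fetal livers and 70.6 to 126 CPM in adult livers. Fgfr3 (chr5:33721724-33737068) had 0.506, 1.38, 1.15 and 0.786 CPM in ES lines 1 to 4, 4.60 to 41.3 CPM in embryos, 16.5 to 33.2 CPM in fetal livers and 27.2 to 88.7 CPM in adult livers. Fgfr4 (chr13:55152818-55168759), the receptor of the bile acid hormone, had 0.433, 0.509, 0.923 and 1.41 CPM in ES lines 1 to 4, 5.64 to 40.3 CPM in embryos, 9.17 to 17.4 CPM in fetal livers and 25.3 to 54.8 CPM in adult livers. For Fgfr3 and Fgfr4 the ES lines lay below every other library, and for Fgfr2 they overlapped the embryos. Fetal and adult livers did not overlap for Fgfr4, and overlapped for Fgfr2 and Fgfr3.

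In RPKM, Fgfr2 was the most abundant receptor of both liver stages, with medians of 16.5 in fetal and 16.8 in adult livers. Fgfr3 had 5.91 and 11.9 RPKM, Fgfr4 4.47 and 9.07 RPKM, and Fgfr1 1.16 and 1.115 RPKM in fetal and adult livers, respectively. The ranges of Fgfr3 and Fgfr4 overlapped at both ages. No order between genes is given for embryos, because amplification from single embryos does not sample transcripts evenly along their length.

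The 3 feedback inhibitors did not share a pattern. Dusp6 (chr10:99263231-99267489), the ERK phosphatase, was a gene of liver: it had 82.4 to 123 CPM in fetal livers (median 95.7) and 52.1 to 183 CPM in adult livers (median 93.9), against 8.02, 11.6, 6.84 and 6.44 CPM in ES lines 1 to 4. In 8 of 12 embryos it had no read, and the highest embryo had 8.23 CPM. Per length it was the most abundant of the 10 genes in liver, with medians of 38.1 RPKM in fetal and 27.1 RPKM in adult livers, though adult livers overlapped with Fgfr2 (15.4 to 53.0 against 12.9 to 22.96 RPKM).

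Spry2 (chr14:105891947-105896819) had its highest medians in embryos and ES cells, though its lowest embryo lay within the range of the fetal livers. It had 5.26 to 119 CPM in embryos (median 56.3) and 54.5, 65.9, 60.7 and 66.5 CPM in ES lines 1 to 4, but 3.13 to 8.21 CPM in fetal livers (median 4.83) and at most 4.88 CPM in adult livers (median 1.45), of which 4 had no read. Its homologue Spry4 went the other way, with 0.722, 1.75, 0.154 and 0.471 CPM in ES lines 1 to 4 (2 to 24 reads), 2.92 to 8.73 CPM in fetal livers and 8.60 to 24.2 CPM in adult livers. In embryos Spry4 ranged from no read (2 of 12) to 27.3 CPM. Adult livers thus held more Spry4 than Spry2 per length as well (medians of 2.64 and 0.567 RPKM), and ES lines more Spry2 (39.5 RPKM) than Spry4 (0.165 RPKM).

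Consecutive stages were then compared with edgeR's quasi-likelihood test with sex as a covariate, a gene being called at a Benjamini-Hochberg adjusted p under 0.05 over all genes tested and an absolute log2 fold change above 1. The 3 comparisons share the ES and fetal libraries, so their results are not independent of each other. From eight-cell embryos to 2i ES cells, 3 of the 10 genes rose, 3 fell and 4 were not called, while 52.9% of all 12478 genes tested were called. The share of members called is thus close to that of all genes. Etv4 rose by 6.83 on the log2 scale (SE 1.37, edgeR adjusted p = 0.000424), with reads in 1 embryo only, and its fitted value ran from 5.70 to 9.16 under the alternatives. Fgf4 rose by 4.88 (SE 0.656, edgeR adjusted p = 7.44e-06), with 4.76 to 6.23 under the alternatives, and Etv5 by 3.45 (SE 0.273, edgeR adjusted p = 1.37e-08). Fgfr4 fell by 4.69 (SE 0.705), Fgfr3 by 4.39 (SE 0.672) and Fgfr2 by 1.66 (SE 0.439).

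Of the genes not called, Spry2 was level within its error, at 0.01 on the log2 scale (SE 0.459). Dusp6 had a log2 difference of 3.01 with an SE of 1.60 (edgeR adjusted p = 0.115) and Spry4 of -3.46 with an SE of 1.66 (edgeR adjusted p = 0.0820), both with a wide spread between embryos. Spry4 was called by DESeq2 (-3.13), by limma-voom (-2.16) and in 1 fit of all 64 libraries (-3.75), and Dusp6 by limma-voom (4.92), in that joint fit (2.81) and with a replicate block (6.23). Fgfr1 was lower by 0.72 on the log2 scale, under the fold threshold. The median of all genes in this comparison was 0.44 with TMM and 0.79 with the size factors of DESeq2, a shift of 0.34, and no call of a member changed with that scaling. Relative to the median of all genes, no member differed by more than 0.0683 between both.

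**Figure D2:**
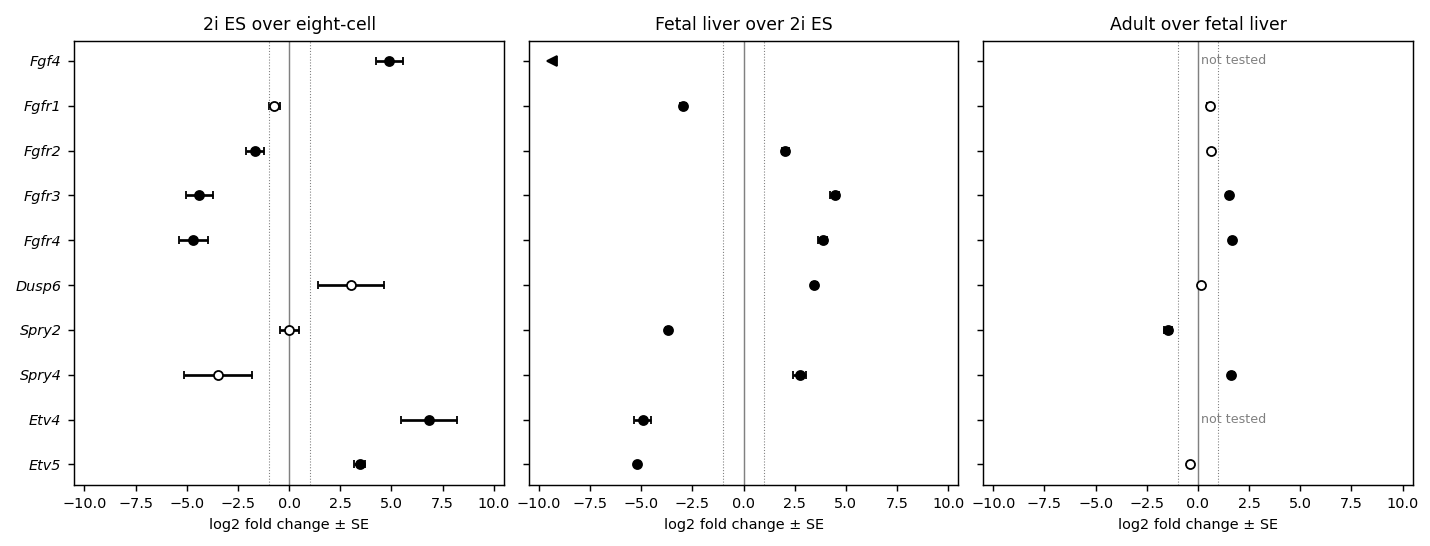
Log2 fold change with its standard error for each gene in 3 comparisons of consecutive stages, with filled circles for called genes, open circles for genes not called and dotted lines at the fold threshold. The triangle for Fgf4 in fetal liver is a bound, at least 9.35 lower on the log2 scale, since no fetal library had a read, and all 10 genes were called between 2i ES cells and fetal liver.

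From 2i ES cells to fetal liver all 10 genes were called, 5 higher and 5 lower, against 56.2% of 14333 genes tested. The genes that fell were the ligand, both ETS factors, Fgfr1 and Spry2. Fgf4 was at least 652-fold lower, its mean of 333 CPM in ES lines set against the highest limit of any fetal library (0.511 CPM). Etv5 fell by 5.19 on the log2 scale (SE 0.0811, edgeR adjusted p = 7.34e-32), Etv4 by 4.93 (SE 0.429), Spry2 by 3.70 (SE 0.114) and Fgfr1 by 2.97 (SE 0.147). The genes that rose were the other 3 receptors and the other 2 inhibitors: Fgfr3 by 4.45 (SE 0.218), Fgfr4 by 3.87 (SE 0.212), Dusp6 by 3.46 (SE 0.132, edgeR adjusted p = 1.32e-21), Spry4 by 2.73 (SE 0.300) and Fgfr2 by 2.04 (SE 0.155). Libraries of both stages came from the same total RNA kit. Fetal liver is a mixture of cell types, and the make-up of the ES cultures was not measured. In such bulk samples fewer cells of a type cannot be told apart from less RNA per cell.

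From fetal to adult liver 4 of the 8 genes tested were called, against 42.6% of 12647 genes, and Fgf4 and Etv4 had too few reads to be tested. Fgfr4 rose by 1.65 on the log2 scale (SE 0.0703, edgeR adjusted p = 5.04e-29), Spry4 by 1.63 (SE 0.107) and Fgfr3 by 1.53 (SE 0.0840), and Spry2 fell by 1.48 (SE 0.193, edgeR adjusted p = 5.73e-10). Fgfr2 (log2 of 0.66), Fgfr1 (0.57) and Etv5 (-0.39) had adjusted p-values under the threshold but smaller folds, and Dusp6 was at 0.16 (SE 0.0832, edgeR adjusted p = 0.0594). Adult libraries had TMM factors below 1 and fetal libraries above it. Without TMM the median of all genes shifted by -0.56, the split of called genes went from 2448 higher and 2939 lower to 1439 and 4662, Fgfr3 came to 0.96 and was no longer called, and Dusp6 changed sign to -0.39. Relative to the median of all genes, no member differed by more than 0.00732 between both scalings.

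Markers of other cells moved with this comparison. The summed level of 6 erythroid markers was 1489 to 2390 CPM in fetal livers and 18.9 to 250 CPM in adult livers, and 4 of the 4 tested fell. Hbb-b1 and Hba-a1 had no read in adult livers, and Hba-a1 had none in the 12 female fetal livers either. Those fetal livers had 945 to 1436 CPM of the erythroid gene Alas2, so a lack of reads does not show that globin RNA was absent. Multiply aligned reads were not counted to genes, and their part in the globin counts was not tested. The summed level of 5 fibroblast markers was 524 to 1497 CPM in fetal and 93.3 to 316 CPM in adult livers, and 4 of the 4 tested fell. The summed level of 6 hepatocyte markers was 30488 to 41567 CPM in fetal and 52096 to 72562 CPM in adult livers, with 3 of 6 called higher. Their part in the changes of the members was not tested.

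Among 73 other genes of the pathway, 48 passed the filter on low counts between embryos and ES cells, of which 19 rose, 9 fell and 20 were not called, where 52.9% of all genes tested were called. By the size of the fitted fold, Etv1 led the genes that rose. Etv1, an ETS factor of the same subfamily as Etv4 and Etv5, had 8.60 to 19.4 CPM in ES lines and no read in any embryo, so it was at least 27.1-fold higher. Elk3, another ETS factor, rose from at most 0.282 CPM in embryos, under the limit of 3 reads, to 6.79 to 13.3 CPM in ES lines. The ligand Fgf17 had 2.67 to 6.00 CPM in ES lines and no read in embryos (at least 6.39-fold higher). By the fitted fold those that fell most were the ligand Fgf1 (0 to 22.4 CPM in embryos and at most 0.236 CPM in ES lines), the co-receptor Klb (log2 of -4.62) and the ERK-responsive gene Phlda1 (-4.48). The call of Fgf1 was lost without ES line 1 or without line 2, and that of Klb with a replicate block. Of the 11 other feedback inhibitors tested, 6 rose and none fell, a share of called genes near that of all genes.

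Between ES cells and fetal liver 54 of the 73 genes were tested, and 17 rose and 10 fell, where 56.2% of all genes were called. The bile acid enzymes Cyp7a1, the rate-limiting enzyme of bile acid synthesis, and Cyp8b1 had no read in ES lines and were at least 382-fold and 169-fold higher in fetal liver. Fgf1 rose from at most 0.236 CPM in ES lines to 8.00 to 16.8 CPM in fetal livers. The ligand Fgf17 fell from 2.67 to 6.00 CPM in ES lines to at most 0.262 CPM in fetal livers. Fgf3 fell from 1.16 to 5.26 CPM to at most 0.313 CPM and Fgf10 from 3.54 to 6.48 CPM to at most 0.471 CPM. With adult age 47 were tested, 11 rose and 8 fell, where 42.6% of all genes were called. Nr0b2, a nuclear receptor induced by bile acids, rose from at most 1.77 CPM to 17.6 to 67.8 CPM. Fgf1 rose by 3.61 on the log2 scale and Cyp8b1 by 3.04. The ERK phosphatase gene Dusp9 fell from 19.9 to 44.6 CPM in fetal livers to at most 0.697 CPM in adult livers, under the limit of 3 reads. The proteoglycan gene Gpc3 (log2 of -8.11) and Myc (-3.03) fell as well. Gpc3 had 429 to 599 CPM in fetal livers and at most 4.37 CPM in adult livers.

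The 4 ES lines were close to each other in the abundant genes and apart in a few scarcer ones. The ratio of the highest to the lowest line was 1.11 for Fgf4, 1.22 for Spry2, 1.25 for Etv5 and 1.35 for Fgfr1, against a median of 1.35 over the 11399 genes with at least 1 CPM in every line. It was 5.34 for Etv4, 2.77 for Fgfr2 and 1.80 for Dusp6, where 95% of all those genes lay under 2.91. Genes with few reads had ratios of 11.4 (Spry4, 2 to 24 reads), 3.26 (Fgfr4, 6 to 18 reads) and 2.73 (Fgfr3, 7 to 19 reads). For Etv4 line 1 was low, with 2.38 CPM and an exact Poisson 95% interval of 1.64 to 3.35 CPM from 33 reads, and line 2 high, with 12.7 CPM (10.9 to 14.8 from 175 reads), and both are male. For Fgfr2 line 2 was low, with 6.55 CPM (5.27 to 8.05 from 90 reads) against 15.4 to 18.1 CPM in the others. For Dusp6 the same line 2 was highest, at 11.6 CPM (9.84 to 13.5 from 159 reads), and lines 3 and 4 had 6.84 and 6.44 CPM. The intervals cover counting error only, and there was 1 library per line, so a difference between lines has no replicate check.

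**Figure D3:**
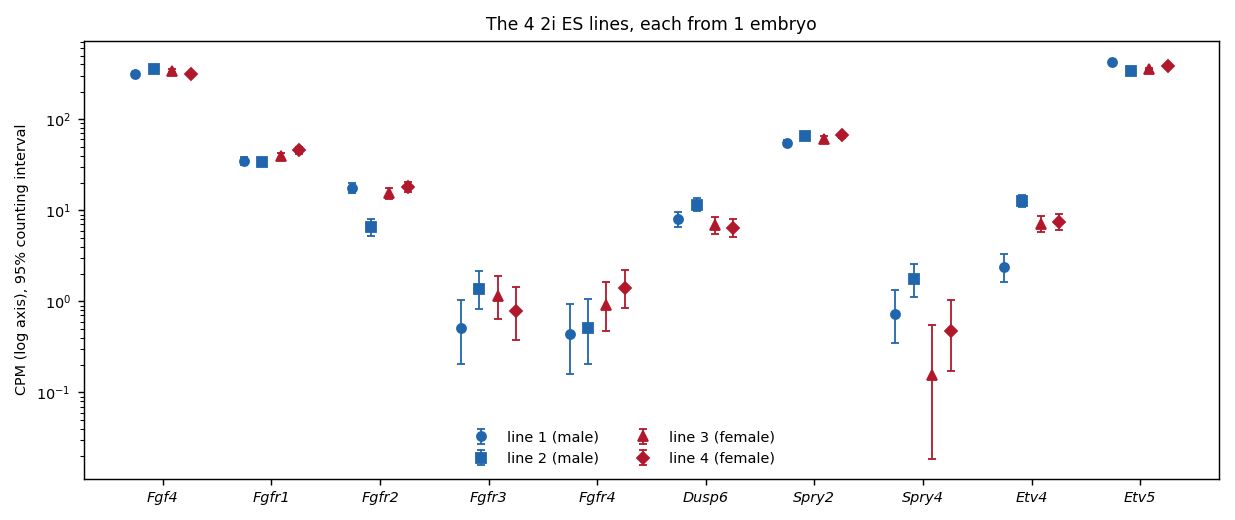
CPM on a log axis of the 10 genes in the 4 2i ES lines, with 95% exact Poisson intervals that cover counting error only. Etv4 spans 2.38 to 12.7 CPM between both male lines, and line 2 is lowest for Fgfr2 and highest for Dusp6, Spry4 and Etv4.

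Male and female ES lines were compared with a call at an adjusted p under 0.1 and an absolute log2 difference above 0.5. None of the 9 members tested was called by edgeR, nor by DESeq2 or limma-voom, while 9.5% of 12678 genes were, and Fgfr4 alone had an unadjusted p under 0.05 (log2 male/female of -1.29, SE 0.480, edgeR adjusted p = 0.184). Dusp6 was at 0.56 (SE 0.241, edgeR adjusted p = 0.226) and Fgfr1 at -0.30 (SE 0.121, edgeR adjusted p = 0.211). Leaving out a line leaves 1 line of a sex, which is then assumed to vary like the other sex. Without line 1, Fgfr2 (-1.36), Dusp6 (0.80), Etv4 (0.80) and Spry4 (2.45) were called, and without line 2, Etv4 was called in the opposite direction (-1.60). Over all genes 2606 and 3070 were then called instead of 1205, and none without line 3 or line 4.

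Some other genes of the pathway were called between male and female lines. Of 47 tested, 1 was higher and 6 were lower in the male lines, where 9.5% of all genes were called. Of these 6 all but Fgf3 lie on the X chromosome. Dusp9, a phosphatase gene of the same family as Dusp6, had 6.28 and 13.8 CPM in male and 66.5 and 72.2 CPM in female lines (log2 of -2.79, SE 0.332, edgeR adjusted p = 0.0177). Gpc3 had 18.3 and 17.5 CPM in male and 79.7 and 76.6 CPM in female lines (log2 of -2.12, SE 0.104, edgeR adjusted p = 0.0104). Gpc4 (log2 of -1.49), the kinase gene Araf (-0.89) and the ETS factor gene Elk1 (-0.81) were lower as well. These were the 5 X-linked genes among the 47, and 64.6% of the 461 X-linked genes tested were called lower in male lines, with a median log2 of -0.89 over all 461. The difference of Dusp9, Gpc3 and Gpc4 was larger than that median. None of the 7 calls was kept without line 3 or without line 4, although each kept its direction. Fgf3 (-1.90) and Nf1, which encodes a GTPase-activating protein that turns Ras off (0.78), are autosomal. Of 42 autosomal pathway genes tested 1 was lower and 1 higher in male lines, where 3.86% and 3.56% of genes off the X chromosome were.

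**Figure D4:**
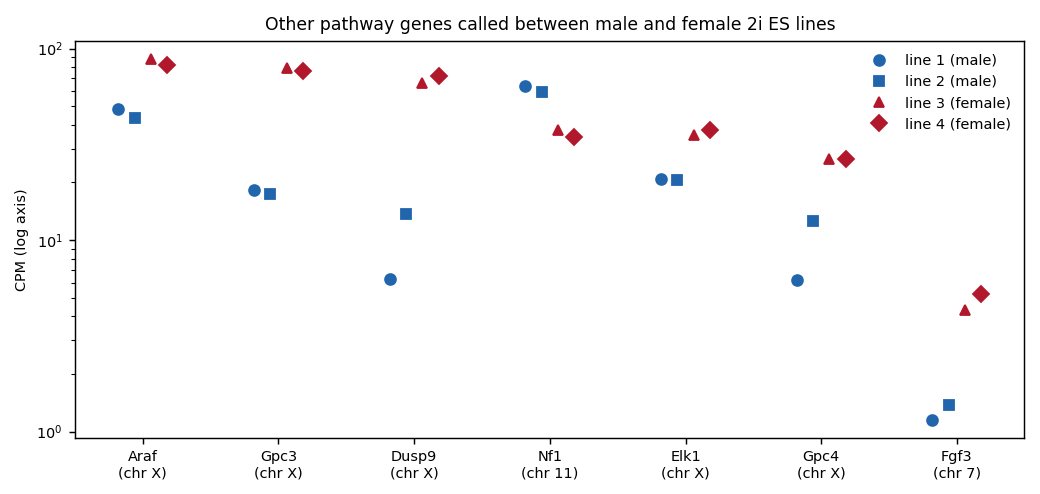
CPM on a log axis in the 4 2i ES lines for the 7 other pathway genes called between the sexes, with the chromosome of each. Both female lines lie above both male lines for the 5 X-linked genes and Fgf3, and below them for Nf1.

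Eight-cell embryos differed much among themselves. In Spry2, which had 36 to 744 reads, male embryos had 5.26 to 59.8 CPM (median 44.7) and female embryos 25.6 to 119 CPM (median 84.2), a log2 male/female difference of -1.01 with an unadjusted p of 0.0394 and an edgeR adjusted p of 1.00. None of the 8 members tested was called, against 0.264% of 9087 genes and 0 of 33 other pathway genes, and DESeq2 and limma-voom called none either. In 1 fit of all 64 libraries 5 members were called, but so were 3461 of the 15736 genes tested in that fit. The intervals are wide: the SE of the log2 difference was 0.912 for Fgf4 and 1.24 for Spry4. The coefficient of variation between embryos was 107% for Fgf4, 116% for Spry4 and 60.9% for Spry2, against a median of 42.8% over 8074 genes of at least 5 CPM, and 32.98% for Fgfr1 and 37.1% for Etv5.

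In fetal liver none of the 8 members tested was called between the sexes by edgeR, DESeq2 or limma-voom, against 4.64% of 12930 genes. Spry4 was the 1 member with an unadjusted p under 0.05, with 3.06 to 8.73 CPM in males (median 6.19) and 2.92 to 7.20 CPM in females (median 4.71), a log2 of 0.42 (SE 0.145, edgeR adjusted p = 0.0292) that lay under the fold threshold. Of 49 other pathway genes 8 were higher in males and none lower: the ERK target Egr1 (log2 of 1.07), Spred2 (0.89), Cbl (0.87), Gpc4 (0.85), Phlda1 (0.74), Sos1 (0.68), Nf1 (0.63) and Frs2 (0.53). Most of the 600 genes called over the genome were higher in males as well, and 107 were lower, so this direction is not particular to the pathway. Cbl, which encodes a ligase that sends active receptors for degradation, had 36.9 to 72.6 CPM in males and 19.99 to 36.7 CPM in females, with no overlap. The share of reads outside genes moved with sex in these libraries, being 39.9% to 49.0% in males and 34.1% to 38.1% in females. These ranges do not overlap, so a fit with this share can hardly tell it apart from sex. A loss of calls in that fit does not show which of them the calls belong to. With that share as a covariate Spry4 came to 0.08, Frs2, Gpc4, Phlda1 and Sos1 changed sign, none of the 8 pathway genes was called (Egr1 kept a log2 of 1.16 with an SE of 0.452), and 9 genes instead of 600 were called over the genome.

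In adult liver Fgfr1 was higher in males. It had 6.76 to 14.7 CPM in 12 males (median 10.3) and 3.20 to 7.94 CPM in 12 females (median 4.22). The groups overlapped by few animals, since 2 males lay below the highest female and 1 female above the lowest male. The log2 difference was 1.21 (SE 0.153, edgeR adjusted p = 2.3e-07), from 5 to 54 reads per library, and it was the 1 called of 7 members tested, against 9.49% of 10372 genes. In fetal livers the same gene had 3.35 to 10.1 CPM in males and 2.98 to 8.33 CPM in females (log2 of 0.30, SE 0.156, edgeR adjusted p = 0.149). The interaction of sex and liver stage, which tests the difference between these differences and was called at an adjusted p under 0.1 with no fold threshold, was 0.96 for Fgfr1 (SE 0.226, edgeR adjusted p = 0.00107), while 33.7% of 13026 genes were called in it and no other member was.

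**Figure D5:**
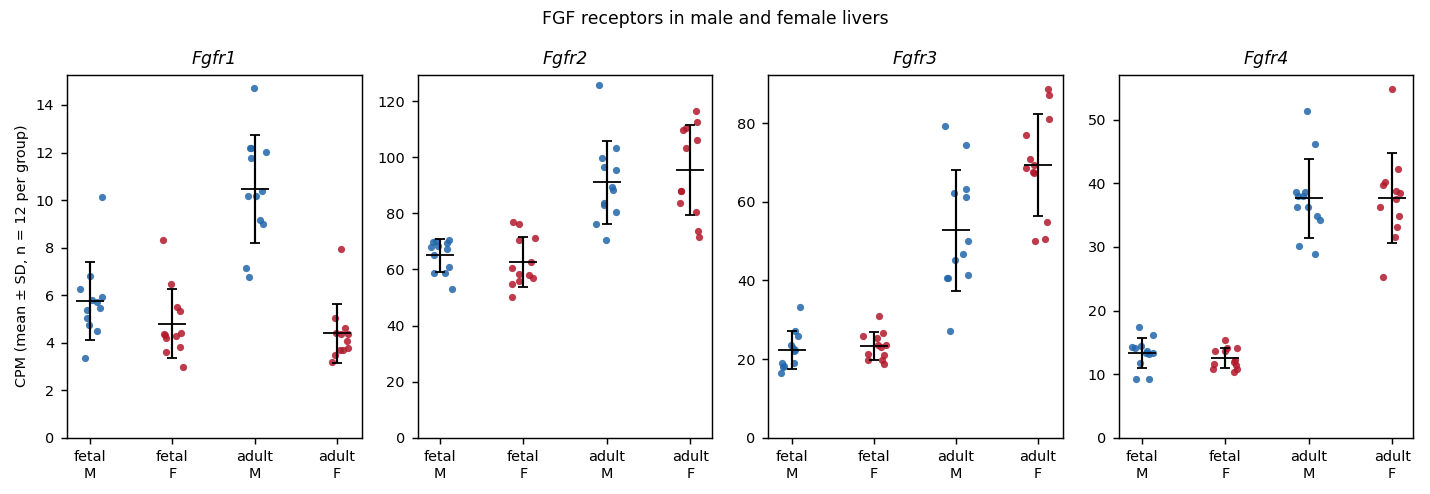
CPM of Fgfr1, Fgfr2, Fgfr3 and Fgfr4 in 12 male and 12 female livers at each age, with 1 point per library and bars at the mean ± SD. Fgfr1 in adult males, at 10.47 ± 2.27 CPM (SD, n = 12), lies above adult females, at 4.39 ± 1.23 CPM (SD, n = 12), and the other receptors overlap widely.

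Fgfr3 went the other way in adult livers, with 27.2 to 79.3 CPM in males (median 48.4) and 50.1 to 88.7 CPM in females (median 68.9), a log2 of -0.41 (SE 0.123, edgeR adjusted p = 0.0136) that lay under the fold threshold. Fgfr2 (-0.09, SE 0.0874) and Fgfr4 (-0.04, SE 0.104) were not called, and Spry4 was at 0.26 (SE 0.151, edgeR adjusted p = 0.220). Of 37 other pathway genes 1 was higher and 2 were lower in males, a share near the 9.49% of all genes that were called. Cyp8b1 was higher (log2 of 0.60), while Cyp7a1 (-1.30) and Sdc1, a heparan sulfate proteoglycan that serves as a co-receptor (-0.68), were lower. Cyp7a1 had 39.4 to 198 CPM in males and 139 to 769 CPM in females. With the share of multiply aligned reads as a covariate neither Cyp7a1 (-1.0001) nor Cyp8b1 (0.37) was called. That share moved with sex, so this fit can hardly tell them apart.

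Several technical and cell type measures moved with sex in the adult livers. Multiply aligned reads made up 42.2% to 61.1% of the reads in males and 32.7% to 43.2% in females. With that share as a covariate the log2 of Fgfr1 was 1.32 (edgeR adjusted p = 0.000504) and that of Fgfr3 was -0.05. The ranges of the share barely overlapped, so that fit can hardly tell it apart from sex. In livers of at least 2500000 reads Fgfr1 was at 1.15 and Spry4 was called, at 0.53 (edgeR adjusted p = 0.00922). The summed level of the erythroid markers was 193 to 250 CPM in males and 18.9 to 56.5 CPM in females, and the 1 of them that was tested was called higher in males. Most of that sum was the single gene Alas2, with 184 to 242 CPM in males and 13.3 to 50.6 CPM in females. The sum is thus no measure of the whole marker list. Stellate cell markers summed to 553 to 878 CPM in males and 710 to 965 CPM in females, and none of 6 was called. Kupffer cell markers summed to 290 to 525 CPM in males and 397 to 924 CPM in females, and 3 of 5 were called lower in males. Hepatocyte markers summed to 52096 to 64174 CPM in males and 63445 to 72562 CPM in females, and none of 6 was called. Fibroblast markers summed to 93.3 to 259 CPM in males and 108 to 316 CPM in females, and 1 of 4 tested was called lower in males. Endothelial cell markers summed to 480 to 579 CPM in males and 545 to 685 CPM in females, and 1 of 6 was called lower in males. The part of these cells in the difference of Fgfr1 was not tested.

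The interaction of sex and stage called 18 of 48 other pathway genes, where 33.7% of all genes were called. Among the kinase cascade genes Hras1 (0.53), Map2k2 (0.52) and Map2k1 (0.31) were called with a larger male/female ratio in adult liver. Of the 10 other feedback inhibitors tested, Spred2 (-1.06), Cbl (-0.81), Spred1 (-0.47) and Nf1 (-0.40) had a smaller ratio in adult liver, and Dusp4 (0.98) a larger one. With the share of reads outside genes as a covariate Map2k2 alone of these 8 kept its call. That share did not overlap between the sexes in fetal liver, so this fit can hardly tell them apart there.

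The 5 ERK target genes Dusp6, Spry2, Spry4, Etv4 and Etv5 were compared across libraries of 1 stage, as log2(CPM + 0.5) centred on the mean of each sex, in the 10 pairs and stages where both genes had a median of at least 20 reads. No pair passed the test, with 0 of 10 at an adjusted p under 0.05 and 0 at an unadjusted p under 0.05. In 24 fetal livers the strongest was Spry2 with Etv5, with r = 0.26 (permutation p = 0.228, adjusted p = 0.837) and rho = 0.40 (permutation p = 0.0591, adjusted p = 0.591), and r = 0.22 without the 2 libraries farthest from the median of Spry2. In 24 adult livers Dusp6 with Spry4 gave r = 0.10 (permutation p = 0.670, adjusted p = 0.837) and rho = 0.12. In 12 embryos Spry2 with Etv5 gave r = 0.14 (permutation p = 0.640, adjusted p = 0.837) and rho = 0.24, and r = 0.67 without the 2 embryos farthest from the median of Spry2. Few reads of Spry2 and Spry4 in liver (medians of 35 and 38 in fetal livers) limit what such a test could find.

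Over all 64 libraries and 13983 genes, the genes most like each member in log2(CPM + 0.5) were, by Pearson's r, EU599041 (0.962) and the pluripotency factor Nanog (0.959) for Fgf4, Ooep (0.921) and Zfp600 (0.919) for Etv5, and Nefl (0.870) and Gm8909 (0.863) for Etv4. For the receptors they were Slc6a8 (0.936) and Usp10 (0.934) for Fgfr1, Lgals9 (0.931) and Dgat2 (0.897) for Fgfr2, Bhmt2 (0.920) and the urea cycle enzyme Arg1 (0.918) for Fgfr3, and the oxysterol receptor Nr1h3 (0.944) and Bhmt2 (0.938) for Fgfr4. For the inhibitors they were Tnfrsf1b (0.975) and Fbxw4 (0.972) for Dusp6, Enoph1 (0.933) and Kctd5 (0.931) for Spry2, and Stat2 (0.821) and Mlxipl (0.804) for Spry4. These values describe mainly the order of the 4 stages, since libraries of a stage lie close together and share a protocol.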

How the data were processed

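RNA-seq of 64 libraries was used. The authors tested sex with DESeq2. Per the labels, embryo libraries came from an adapted single-cell protocol and the others from a stranded total RNA kit. The deposited files hold whole-number counts of reads per gene. The submitters' processing notes name TopHat2 2.0.4, Bowtie2 2.1.0, SAMtools 0.1.18, Picard, HTSeq and mm10, and the strand setting of the counting is not given in the sources used here, so antisense overlaps cannot be told apart. The 5 rows per file that name no gene (reads outside genes 8.63% to 49.0% of those aligned once) were left out. No 2 libraries were the same within sampling noise.

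Counts were tested with edgeR 4.0.16 and its quasi-likelihood test, TMM scaling and its filter on low counts, each comparison on its own libraries, and p-values were adjusted over all genes tested. Stage comparisons had sex as a covariate and the sex comparisons none. Scripts were tested on simulated data. DESeq2 1.42.0, its size factors, limma-voom (3.58.1) with sample weights, no filter, 1 fit of all 64 libraries, no fold threshold, no sex term, a replicate block, each ES line left out and the share outside genes as a covariate were alternatives. Library totals without TMM, adult livers of at least 2500000 reads and the share of multiply aligned reads were added after seeing the data. Permutation tests were two-sided with 100000 resamples within sex.

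All 10 members are named in the stage comparisons. In the sex comparisons and the interaction every called member is named, with only some of the others. Of the other pathway genes, the 3 called with the largest fold in each direction of a stage comparison and every gene called in a sex comparison or the interaction are named, except 1 gene that is not reported here. Members and lists were chosen with earlier results of these data known. P-values measure the spread between these libraries. Litters of the embryos are not in the labels. Per the paper the embryos came from fewer litters than there were embryos, so some shared a litter. The tests treat each embryo as independent.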

Additional observations from a re-analysis of the deposited data

Results flagged for a closer look

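In groups of 4 to 10 libraries, 3 of the 29 groups of member values tested held a library far from the others by Dixon's test. All were in eight-cell embryos. Chance flags about 1 group in 20 where values are normal, which does not hold for genes with no read in most libraries (Dusp6 and Etv4). For Fgf4, female embryo 11 had 41.7 CPM and the next female embryo 12.7 CPM. For Dusp6, male embryo 2 had 2.96 CPM and the next male embryo 0.307 CPM, and 4 of the 6 male embryos had no read. For Etv4, male embryo 5 had 1.38 CPM and the other male embryos had no read, so the test was bound to flag it.

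The male/female difference differed between adult and fetal liver for Fgfr1, by 0.96 on the log2 scale (edgeR adjusted p = 0.00107). Of all 13026 genes tested 33.7% were called in the same test, and the share of pathway genes was close to it. Among the other pathway genes the same test gave larger male/female ratios in adult liver for Dusp4 (0.98), Frs3 (0.73), Cyp8b1 (0.56), Hras1 (0.53), Map2k2 (0.52), Map2k1 (0.31) and Shc1 (0.24). It gave smaller ratios for Cyp7a1 (-1.34), Spred2 (-1.06), Cbl (-0.81), Gpc4 (-0.79), Spred1 (-0.47), Elk3 (-0.45), Sdc1 (-0.44), Frs2 (-0.41), Klb (-0.40) and Nf1 (-0.40). With the share of reads outside genes as a covariate 989 genes rather than 4384 were called over the genome, Fgfr1 was at 1.55, and Frs2 (0.22), Gpc4 (0.32) and Nf1 (0.10) changed sign. Of the other pathway genes named here only Map2k2 (0.38) and Sdc1 (-0.53) kept their call with that covariate. In fetal liver the covariate did not overlap between the sexes, so the lost calls cannot be assigned to either.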

How the results depend on the processing

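Of 241 values of called members under the alternatives, 240 kept their direction and call, the other being Fgfr3 between liver stages without TMM. Fgfr1 stayed between 1.15 and 1.32 in adult liver and between 0.85 and 1.55 in the interaction. Counts over all genes moved by more than 1.5 times as follows. In 1 fit of all 64 libraries 9917 genes were called between ES cells and embryos, 3461 between male and female embryos (5 of them members), 339 between ES lines and 391 between fetal livers. Without a fold threshold 12806 (fetal liver over ES), 11330 (adult over fetal liver, with 7 members), 4807 (fetal sexes, 1 member) and 3400 (adult sexes, 2 members) were called. Without a filter the counts were 8203 between liver stages, 1057 between fetal and 1518 between adult sexes. DESeq2 called 64 genes and limma-voom 44 between embryo sexes, where edgeR called 24, and DESeq2 called 2 members in the interaction. The share outside genes as a covariate left 9 genes between fetal sexes and 989 in the interaction, and the share of multiply aligned reads 608 between adult sexes. Both shares moved with sex, so these fits can hardly tell a share apart from sex. Livers of at least 2500000 reads gave 2 members between adult sexes. Leaving out 1 ES line gave 0 to 3070 genes and 0 to 4 members between ES sexes.

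The sign changed in values of members that were not called and of some called pathway genes. For Spry2 between ES cells and embryos it was -0.11 without the sex term and from -0.16 to 0.17 with 1 ES line left out. Between ES sexes, leaving out a line gave -0.050 to 0.094 for Fgf4, -1.36 to 0.088 for Fgfr2, -0.92 to 0.50 for Fgfr3, -0.21 to 0.048 for Spry2, -1.60 to 0.80 for Etv4 and -0.12 to 0.22 for Etv5, and limma-voom gave -0.40 for Etv4. The share outside genes turned Fgfr1 (-0.31), Fgfr4 (-0.15) and Dusp6 (0.22) between fetal sexes, with the called pathway genes Frs2 (-0.14), Gpc4 (-0.31), Phlda1 (-0.45) and Sos1 (-0.034), and Fgfr3 (0.12), Fgfr4 (0.11) and Spry4 (0.18) in the interaction, with Frs2 (0.22), Gpc4 (0.32) and Nf1 (0.10). Multiply aligned reads turned Fgfr2 (0.055) and Dusp6 (0.067) between adult sexes. Dusp6 between liver stages was -0.39 without TMM. In the interaction the deeper livers gave 0.12 for Spry4 and 0.00010 for Etv5, and no filter 0.012 for Etv5. Correlations turned to -0.22 (Spry2 with Spry4, female embryos), -0.29 (Spry2 with Etv5, male embryos), -0.27 (Spry4 with Etv5, male embryos), 0.062 and -0.054 (Dusp6 with Spry2 and Spry4, fetal livers without the 2 farthest), and in male fetal livers -0.59 (Dusp6 with Spry4), -0.089 (Dusp6 with Etv5), -0.071 (Spry2 with Spry4) and -0.26 (Spry4 with Etv5). The cause was not tested for any of these.

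The interaction call of Fgfr3 by DESeq2 was at -0.36. Replicate numbers did not pair the libraries, since correlations of same-numbered libraries were -0.118 to 0.0729. With the replicate block 5747, 7813 and 5386 genes were called in the 3 stage comparisons, against 6600, 8060 and 5387, and the block is not in the design of the study. Depth limits Etv4, Spry2 and Spry4 in liver, where libraries held few reads.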
